A study of Homo sapiens with 16 samples.

Results

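The comparison set 3 human B-cell lines that carry Epstein-Barr virus (EBV), GRANTA-519, JVM-2 and JVM-13, against 5 that do not, REC-1, SP49, HBL-2, Z-138 and Maver-1, all under DMSO. It used 8 of the 16 arrays of the study, 1 per line, and human genes alone. EBV status comes from the known origin of the lines and was not measured here: JVM-2 and JVM-13 are leukaemia-derived lines established with EBV, and GRANTA-519 is an EBV-positive line from a mantle cell lymphoma. The study treated 8 lines, labelled as mantle cell lymphoma, for 20 hours with 0.025% DMSO or with AFN700 at 5 uM, which blocks the NF-kB-activating kinase IKKbeta, and ran 1 Affymetrix array per line and treatment. REC-1 and SP49 are labelled sensitive to "stn" and ibrutinib, and the other lines insensitive, so all 3 EBV-positive lines were insensitive. GRANTA-519 was grown in DMEM, and every other line in RPMI, both with fetal bovine serum. The labels name no virus and no engineered allele. The line was the replicate, and a line's own value has no error. Status cannot be told apart from other ways in which the 2 groups of lines differ, among them the leukaemic origin of the JVM lines.

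EBV persists in B cells and can drive them to proliferate as lymphoblasts. Its nuclear protein EBNA2 acts through the DNA-binding protein RBPJ, as the cell's own Notch receptors do, and its membrane protein LMP1 signals like an always-active CD40 and switches on NF-kB. Cells in this growth programme are known for activation antigens, adhesion molecules, chemokines and inhibitors of apoptosis, and for low levels of germinal centre genes. Not every EBV-positive line uses the whole programme, and the viral transcripts were not analysed here.

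Levels are MAS5 probe set intensities, and differences are EBV-positive minus EBV-negative on the log2(intensity + 3.3) scale, given with the standard error (SE) of limma's fit. Each gene is read by 1 probe set, so a level is compared between lines and not between genes. An intensity of a few units cannot be told from background, since no detection calls were used, and log2 differences from such levels are understated. A gene was called when its limma p-value, adjusted over all 12305 genes tested, was under 0.05.

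All lines expressed B-cell genes. MS4A1, which encodes CD20, read 3177.8 to 5321.5, and CD79A, a chain of the B-cell receptor, 661.8 to 1685.0. HLA-DRA was at 5.0 in REC-1 and at 2438.4 or more in the other 7 lines. The mantle cell lymphoma genes CCND1 and SOX11 divided the EBV-positive lines. CD5, also read as a marker of this lymphoma, did not, at 1.3 in GRANTA-519, 1.2 in JVM-2 and 0.6 in JVM-13. It read 71.0 in Maver-1 and 0.6 to 9.6 in the other EBV-negative lines. CCND1, the cyclin D1 gene that the lymphoma's translocation activates, read 2328.5 in GRANTA-519, 78.7 in JVM-2 and 4.8 in JVM-13, and 394.4 to 2093.1 in the EBV-negative lines. At the other CCND1 probe set, which reached 2762.3, the difference between the groups was smaller, at -0.90 against -3.40 here. SOX11, a transcription factor gene typical of this lymphoma, read 1812.8 in GRANTA-519, 0.1 in JVM-2 and 1.4 in JVM-13, against 584.0 to 2335.8. At the probe sets used, GRANTA-519 therefore lay with the EBV-negative lines in CCND1 and SOX11, and the label mantle cell lymphoma has no support from SOX11 in either JVM line. Over the genes tested, the median log2 level under DMSO was 7.25 in JVM-13, below the range of 7.82 to 8.01 in the other 7 lines. The actin 3'/5' ratio, which grows as RNA degrades, was 2.01 to 2.78 in the EBV-positive lines and 1.9 to 10.33 in the EBV-negative lines.

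Of the genes tested, 68 rose (0.553%) and 35 fell (0.284%) in the EBV-positive lines by limma, and at an unadjusted p under 0.05 there were 888 higher (7.22%) and 831 lower (6.75%). In all 103 called genes the 3 EBV-positive lines lay on one side of all 5 EBV-negative lines. Over the whole table, 597 genes (4.85%) lay above in this way and 546 (4.44%) below, and the median difference was -0.10. Called genes differed widely: the higher ones had a median difference of 4.35 (1.32 to 7.13), and the lower ones of -4.55 (sizes of 1.44 to 6.15). In 50 of the 68 higher genes all 5 EBV-negative lines were under an intensity of 50, and in 21 of the 35 lower genes all 3 EBV-positive lines were. The number of calls depended on single lines. Calls were 26 higher and 9 lower without JVM-13, 29 and 12 without JVM-2, and 191 and 182 without GRANTA-519. They were 51 and 22 without REC-1, 68 and 15 without SP49, 39 and 16 without HBL-2, 44 and 23 without Z-138, and 24 and 9 without Maver-1. With the log2 actin ratio as a covariate, 8 of the 68 and 3 of the 35 kept their call. Among the 15 genes per direction with the widest gaps, those that kept it were DAPK1, CPNE8, CD200, TSPAN12, SLAMF1, NAP1L2, FAS and GBP1, and the lower genes ANKMY2, RAVER2 and NOTCH2. Among insensitive lines alone, 3 against 3, 35 and 9 did.

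**Figure D1:**
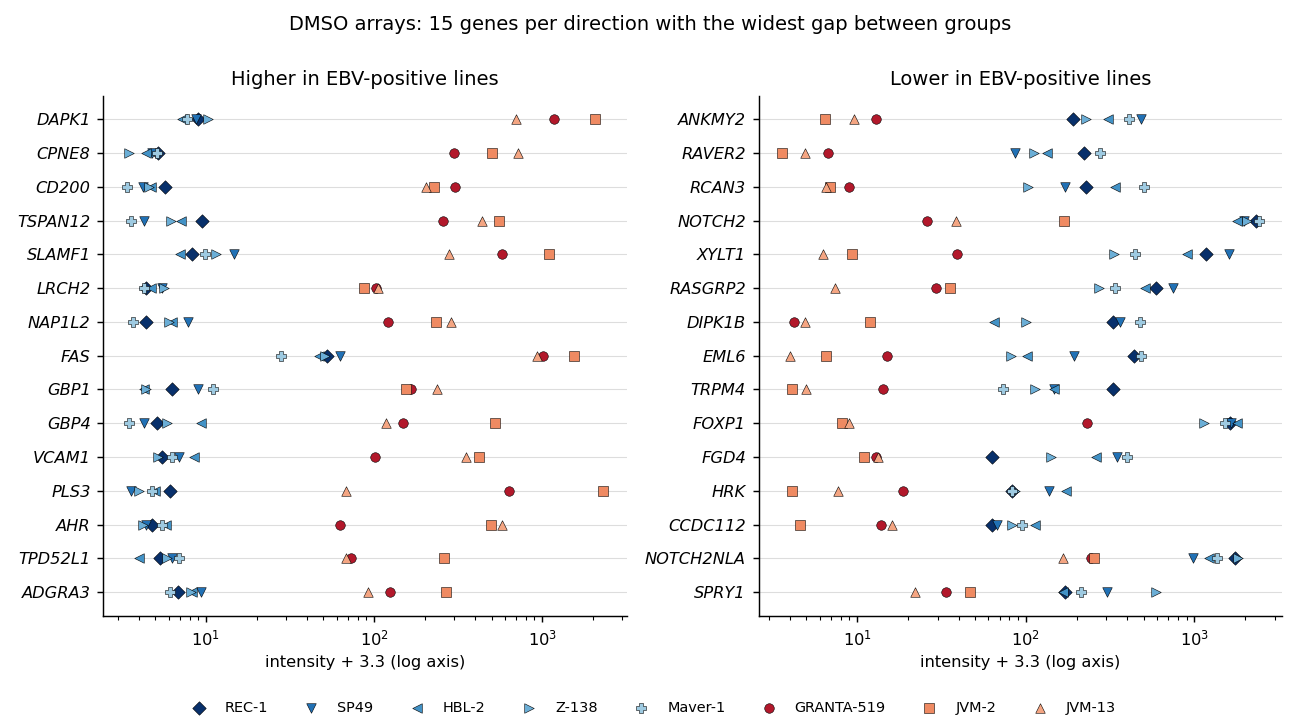
Intensity plus 3.3 (log axis) in each of the 8 DMSO arrays for the 15 called genes per direction with the widest gap between the nearest lines of the groups; red and orange points are the EBV-positive lines and blue points the EBV-negative lines. On the left every EBV-positive point lies above every EBV-negative point, and on the right below.

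The widest gaps among the higher genes were those of DAPK1 and CPNE8. DAPK1, a calmodulin-regulated kinase of cell death, read 1169.5 in GRANTA-519, 2052.8 in JVM-2 and 699.1 in JVM-13, and 5.7, 5.4, 3.9, 7.0 and 4.4 in REC-1, SP49, HBL-2, Z-138 and Maver-1. All 5 EBV-negative lines were near background and the 3 EBV-positive lines were high, a difference of 7.13 (SE 0.48, limma adjusted p 0.000561). CPNE8, a calcium-dependent phospholipid-binding protein, read 296.8, 498.7 and 717.5 in the EBV-positive lines and 0.2 to 1.9 in the others (6.71, SE 0.50, limma adjusted p 0.00069). TSPAN12, a tetraspanin, read 255.4, 547.0 and 437.2 against 0.3 to 6.2 (6.10, SE 0.54). These 3 genes kept their call without any 1 line and with the actin ratio as a covariate.

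The genes of this paragraph encode surface molecules; SLAMF1, CD274, SLAMF7, CD200 and ENTPD1 came from the naming rule, and BTLA and PDCD1LG2 were chosen after their values were seen. CD200, a surface glycoprotein that engages an inhibitory receptor on myeloid cells and is usually absent from mantle cell lymphoma, read 299.0 in GRANTA-519, 222.7 in JVM-2 and 201.5 in JVM-13. In the EBV-negative lines it read 2.4, 0.9, 1.4, 1.3 and 0.1, so the groups lay far apart (5.76, SE 0.48, limma adjusted p 0.00141). SLAMF1, a self-ligand receptor of activated lymphocytes, read 573.4, 1094.2 and 274.8 against 3.7 to 11.4 (5.82, SE 0.55, limma adjusted p 0.00216). CD274, which encodes the checkpoint ligand PD-L1, read 798.7, 1070.9 and 726.5, while SP49 had 84.8 and the other EBV-negative lines 10.5 to 23.0 (4.98, SE 0.60, limma adjusted p 0.00673). The neighbouring gene of the second PD-1 ligand, PDCD1LG2, was also above in all 3 lines but low, at 9.4, 58.2 and 22.0 against 1.2 to 4.7, and was not called. BTLA, an inhibitory receptor whose gene is next to CD200, read 89.7, 798.8 and 790.0 against 0.7 to 31.2 (5.11, SE 0.94, limma adjusted p 0.0433). SLAMF7, a receptor of plasma cells and activated B cells that lies 2 protein-coding genes from SLAMF1, read 681.4, 1077.7 and 123.8 against 1.9 to 47.0 (5.14, SE 0.89, limma adjusted p 0.0357). Of the 8 fits that left out a line, BTLA kept the call in 2, without SP49 or GRANTA-519, SLAMF7 in 2, without SP49 or JVM-13, and CD274 in all 8. With the actin ratio as a covariate CD274 (limma adjusted p 0.0627), BTLA (0.184) and SLAMF7 (0.194) lost their calls. ENTPD1, the ectonucleotidase CD39, differed less, with 1540.0, 2002.2 and 1872.3 against 220.3 to 869.5 (2.29, SE 0.43, limma adjusted p 0.0459), and was called only in the fits without SP49 and without GRANTA-519.

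FAS, a death receptor that NF-kB and LMP1 are known to induce, was the clearest of the 18 reporter genes. It read 1006.0 in GRANTA-519, 1545.8 in JVM-2 and 921.8 in JVM-13, and 49.1, 59.8, 43.9, 47.5 and 24.6 in the EBV-negative lines. The groups were well separated and close within themselves (4.60, SE 0.42, limma adjusted p 0.00178, called in all 8 fits that left out a line). The kinase DAPK1 and FAS thus both stood higher, and among the lower calls was HRK, a BH3-only promoter of apoptosis, at 15.5, 0.8 and 4.4 against 79.1 to 170.3 (-3.67, SE 0.59, limma adjusted p 0.0263). HRK lost its call in 6 of the 8 fits, all but those without REC-1 and without GRANTA-519.

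GBP1 and GBP4, guanylate-binding GTPases that interferons induce, rose. GBP1 read 162.4, 152.3 and 232.5 against 1.0 to 7.7 (4.81, SE 0.54, limma adjusted p 0.00433), and GBP4 145.8, 518.9 and 113.8 against 0.2 to 6.1 (5.30, SE 0.64, limma adjusted p 0.00673). GBP4 lost its call with the actin ratio as a covariate (limma adjusted p 0.0627). GBP2, next to GBP1 on chromosome 1, read 69.2, 44.0 and 136.8 against 17.7 in REC-1 and 3.4 to 4.3 in the other EBV-negative lines, and missed the threshold (3.14, SE 0.61, limma adjusted p 0.0540). Of the 36 tested members of the wider interferon-stimulated list, 1 was called higher, GBP1 (0.553% of all genes were), and 2 lay above all 5 lines (4.85% of all genes did). At an unadjusted p under 0.05, 3 were higher (7.22% of all genes), and the median difference was 1.03. In that list the line medians, relative to the mean of the EBV-negative lines, were 0.01 in GRANTA-519, 2.31 in JVM-2, 0.91 in JVM-13 and 2.11 in the EBV-negative line SP49.

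VCAM1, an adhesion molecule induced by NF-kB, read 98.7, 418.4 and 349.6 against 1.9 to 5.2 (5.28, SE 0.59, limma adjusted p 0.00433, and 0.0514 with the actin ratio as a covariate). Promoters of VCAM1, GBP1, GBP4 and CD274 follow, called genes chosen for display because their windows hold a match to a pattern searched; the window of FAS, also known as an NF-kB target, holds neither of the patterns marked. They run 5′ to 3′ along the gene from 250 bases before to 50 after its start, from RefSeq on GRCh38.p14, at chr1:100719492-100719791 (plus strand), chr1:89065159-89065458 (minus), chr1:89198893-89199192 (minus) and chr9:5450292-5450591 (plus). Capitals mark matches, on either strand, to the NF-kB consensus or to the interferon regulatory factor (IRF) pattern GAAANNGAAA.
VCAM1: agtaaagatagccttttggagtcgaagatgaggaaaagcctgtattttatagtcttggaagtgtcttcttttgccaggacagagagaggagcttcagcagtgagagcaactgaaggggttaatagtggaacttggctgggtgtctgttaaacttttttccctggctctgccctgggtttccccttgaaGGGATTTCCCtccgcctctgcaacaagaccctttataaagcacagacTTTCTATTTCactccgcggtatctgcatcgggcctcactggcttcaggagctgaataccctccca
GBP1: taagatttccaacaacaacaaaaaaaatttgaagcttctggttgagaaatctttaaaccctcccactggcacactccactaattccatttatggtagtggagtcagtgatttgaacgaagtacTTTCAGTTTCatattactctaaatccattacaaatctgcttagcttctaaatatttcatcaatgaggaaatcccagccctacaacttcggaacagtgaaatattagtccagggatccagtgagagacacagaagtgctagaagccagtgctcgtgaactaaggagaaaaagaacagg
GBP4: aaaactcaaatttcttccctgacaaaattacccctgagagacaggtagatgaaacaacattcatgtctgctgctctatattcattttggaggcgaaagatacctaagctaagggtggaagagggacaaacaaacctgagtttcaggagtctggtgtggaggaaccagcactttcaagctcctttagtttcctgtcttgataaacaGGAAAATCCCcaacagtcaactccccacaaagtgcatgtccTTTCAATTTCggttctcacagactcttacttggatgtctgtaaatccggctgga
CD274: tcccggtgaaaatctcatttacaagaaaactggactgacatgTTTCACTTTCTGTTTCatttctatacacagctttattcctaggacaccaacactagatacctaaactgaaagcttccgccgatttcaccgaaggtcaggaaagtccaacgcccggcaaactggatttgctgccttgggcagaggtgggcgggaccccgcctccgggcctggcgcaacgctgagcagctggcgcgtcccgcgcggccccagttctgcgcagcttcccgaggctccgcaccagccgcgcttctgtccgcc
VCAM1 and GBP4 hold both patterns, and GBP1 and CD274 the IRF pattern alone, which occurs in overlapping copies in CD274. Promoters of this length were found for 56 of the 68 higher genes and 29 of the 35 lower genes. The NF-kB consensus was in 11 of the 56 and 3 of the 29, against 6.62% of 10050 promoters of tested genes. The IRF pattern was in 5 and 1, against 3.0%. Of the other patterns, read on both strands, RBPJ (GTGGGAA) was in 1 and 0 (5.62% of all), AP-1 (TGACTCA) in 4 and 0 (2.86%), STAT (TTCNNNGAA) in 5 and 2 (6.37%), and the E-box CACGTG in 3 and 2 (10.4%). CRE (TGACGTCA) was in 1 and 2 (3.21%), RUNX (TGTGGTT) in 4 and 0 (3.1%), PU.1 (GAGGAAGT) in 3 and 0 (2.66%) and the p53 half-site in 2 and 4 (5.33%). These matches describe letters and are not shown to be sites of binding, and patterns may overlap.

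Among the other higher genes with wide gaps, PLS3, which bundles actin, read 634.6, 2307.6 and 65.1 against 0.3 to 2.8 (6.65, SE 0.96, limma adjusted p 0.0172, and 0.0517 without Maver-1). AHR, a ligand-activated transcription factor, read 59.8 in GRANTA-519 and 491.1 and 572.7 in the JVM lines against 0.9 to 2.5 (5.74, SE 0.74, limma adjusted p 0.01, and 0.0581 without JVM-13). GRANTA-519 was thus far below the JVM lines in AHR, though clear of all 5 EBV-negative lines. LRCH2, NAP1L2, TPD52L1 and ADGRA3 complete the 15, with differences of 4.33, 5.20, 4.29 and 4.25, and all 4 kept their calls in every fit that left out a line. With the actin ratio as a covariate PLS3 (limma adjusted p 0.104), AHR (0.0836), LRCH2 (0.0514), TPD52L1 (0.0968) and ADGRA3 (0.0652) lost their calls. Among insensitive lines PLS3 (0.0567) and TPD52L1 (0.0507) lost theirs. Secreted products were also among the calls. CCL5, a chemokine for T cells, read 327.2, 509.5 and 155.2 against 19.4 to 37.4 (3.35, SE 0.49, limma adjusted p 0.0181), and lost its call without Maver-1 or without JVM-2, with adjusted p up to 0.104. IL32, an inflammatory cytokine, was highest in GRANTA-519, at 730.0, with 48.6 in JVM-2 and 69.5 in JVM-13 against 0.4 to 3.9 (5.02, SE 0.85, limma adjusted p 0.0328), and kept its call without SP49, GRANTA-519 or JVM-2 but not without any of the other 5 lines. TIMP1, an inhibitor of matrix metalloproteinases, read 324.2, 1356.6 and 1858.7 against 4.6 to 33.8 (5.56, SE 0.70, limma adjusted p 0.00797, and up to 0.0556 without either JVM line).

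The lower calls included receptors and regulators of mature B cells. NOTCH2, the Notch receptor of marginal zone B cells, read 22.6 in GRANTA-519, 165.6 in JVM-2 and 35.3 in JVM-13, and 2324.9, 1964.5, 1782.7, 2036.0 and 2401.2 in REC-1, SP49, HBL-2, Z-138 and Maver-1. GRANTA-519 was the lowest line of all, and the 5 EBV-negative lines were nearly level (-5.24, SE 0.53, limma adjusted p 0.0033). NOTCH2NLA was lower too (-2.68, SE 0.30), but it is a near-identical partial copy of NOTCH2, and probes may not separate them. DTX1, a Notch-induced ubiquitin ligase, read 300.3, 5.8 and 6.1 against 943.0 to 1896.3 (-5.47, SE 1.03, limma adjusted p 0.0446), and LFNG, which glycosylates Notch receptors, 119.0, 22.9 and 52.4 against 321.1 to 2630.5 (-3.90, SE 0.73, limma adjusted p 0.0446). DTX1 kept its call in 1 of the 8 fits that left out a line, the one without GRANTA-519, and LFNG in 2, without GRANTA-519 or Z-138, while NOTCH2 kept it in all 8.

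FOXP1 and BACH2, transcription factors of mature B cells, were lower, and GRANTA-519 lay between the JVM lines and the EBV-negative lines. FOXP1 read 228.7 in GRANTA-519, 4.8 in JVM-2 and 5.6 in JVM-13 against 1140.0 to 1779.3 (-5.90, SE 0.96, limma adjusted p 0.0263), and 5 of its 6 other probe sets that reached 50 also separated the groups. It kept its call only in the fit without GRANTA-519, with adjusted p up to 0.118 in the others. BACH2 read 40.3, 1.4 and 12.5 against 80.4 to 629.6 (-4.38, SE 0.82, limma adjusted p 0.0446) and kept its call only without REC-1 or without GRANTA-519. At the other probe set of BACH2, which reached 302.7, the difference had the same sign (-3.04), but the groups overlapped. FOXO1, which the phosphoinositide 3-kinase pathway holds in check, was closer but tight, at 217.6 or less in the 3 EBV-positive lines against 492.3 to 954.2 (-1.76, SE 0.31, limma adjusted p 0.0385). AFF3, a nuclear protein of lymphoid cells, had the largest negative difference of all calls, with 17.5, 1.6 and 0.6 against 49.1 in Z-138 and 564.5 to 1309.1 elsewhere (-6.15, SE 1.05, limma adjusted p 0.0330). ROR1, an orphan receptor kinase of mantle cell lymphoma and chronic lymphocytic leukaemia, read 38.3, 1.5 and 0.6 against 117.4 to 391.0 (-4.60, SE 0.82, limma adjusted p 0.0384). FOXO1 and AFF3 kept their calls only without GRANTA-519 or Z-138, and ROR1 only without GRANTA-519, with adjusted p up to 0.133, 0.153 and 0.159.

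The other lower genes among the 15 with the widest gaps have varied roles. ANKMY2, an ankyrin-repeat protein, read 9.6, 3.1 and 6.3 against 187.9 to 475.8 (-5.04, SE 0.48, limma adjusted p 0.00216). RCAN3, a regulator of calcineurin, read 5.6, 3.6 and 3.2 against 100.2 to 501.9 (-4.99, SE 0.57), and RASGRP2, an exchange factor for the GTPase Rap, 26.0, 32.2 and 4.1 against 267.4 to 745.3 (-4.55, SE 0.60). XYLT1, which starts glycosaminoglycan chains, read 35.7, 6.0 and 3.0 against 330.7 to 1595.8 (-5.85, SE 0.72). These 4 genes and RAVER2 (-4.95) kept their calls in all 8 fits that left out a line. With the actin ratio as a covariate RCAN3 (limma adjusted p 0.0522), RASGRP2 (0.0652) and XYLT1 (0.0586) lost theirs, and RASGRP2 also lost it among insensitive lines (0.0555). DIPK1B, EML6, TRPM4, FGD4, CCDC112 and SPRY1 ranged from -5.04 to -2.96 and kept theirs in 6, 5, 6, 3, 1 and 1 of the 8, with adjusted p up to 0.14. The losses came on leaving out either JVM line or an EBV-negative line. ANKMY2 and BZW2 are neighbours on chromosome 7, and HDAC9, also lower, and AHR, higher, lie within 7 protein-coding genes of them.

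Because the JVM lines share an origin, GRANTA-519 was read against them. Its profile correlated at 0.823 and 0.802 (Pearson r across genes, which are not replicates) with JVM-2 and JVM-13, and at 0.805 to 0.859 with the EBV-negative lines. The JVM lines correlated at 0.85 with each other and at 0.734 to 0.784 with the EBV-negative lines. Across the whole profile GRANTA-519 was thus no nearer to the JVM lines than to the EBV-negative lines. Both JVM lines lay above all 5 EBV-negative lines in 1192 genes and below in 1559, of which GRANTA-519 joined them in 597 and 546. In the 68 higher calls GRANTA-519 was closer to the mean of the JVM lines than to that of the EBV-negative lines in 64, and in the 35 lower calls in 28. It was the EBV-positive line nearest to the other group in 36 of the 68 and in 24 of the 35. Calls also require a small spread within the group, so these counts follow in part from calling.

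**Figure D2:**
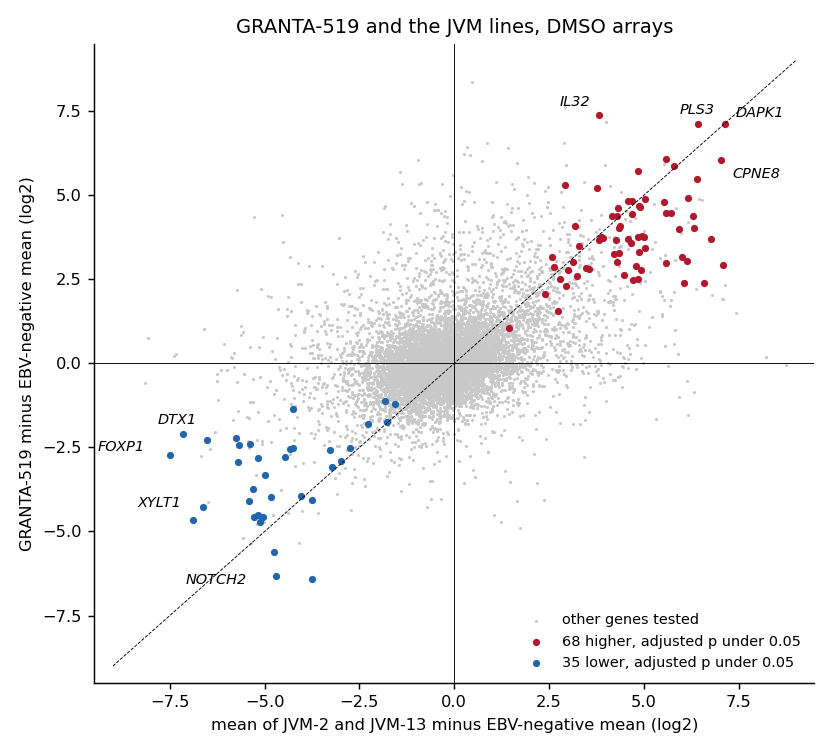
Each point is a gene on the DMSO arrays: the difference of GRANTA-519 from the EBV-negative mean (vertical, log2) against that of the mean of JVM-2 and JVM-13 (horizontal, log2), with the 68 higher calls in red, the 35 lower calls in blue and the dashed line at equality. DAPK1 lies on the line at 7.11 and 7.14, and FOXP1 far from it, at -2.72 in GRANTA-519 and -7.49 in the JVM lines; Y-linked genes and XIST are not drawn.

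Of the 18 reporter genes of EBV-transformed, germinal centre and mantle cells, 2 were called higher, FAS and ENTPD1 (0.553% of all genes were). EBI3 and TRAF1 also lay above all 5 EBV-negative lines, without a call (4.85% of all genes lay above). EBI3, an interleukin subunit first found as EBV-induced, read 652.3, 1282.9 and 599.1 against 278.8 in REC-1, 218.1 in SP49 and 1.1 to 23.1 in the other 3 lines (4.62, SE 1.40, limma adjusted p 0.192). TRAF1, an adaptor of LMP1, read 256.0, 672.8 and 116.7 against 3.5 to 64.9 (3.75, SE 0.83, limma adjusted p 0.0836). In both, the EBV-negative lines themselves spread over a wide range. CCL22, a chemokine of activated B cells, was high in the EBV-positive lines, at 1371.6, 3136.0 and 3263.6, but SP49 reached 1489.1 among EBV-negative lines of 2.6 to 163.6 otherwise (5.43, SE 1.54, limma adjusted p 0.169). BCL2A1, an NF-kB-induced inhibitor of apoptosis, overlapped in the same way, with 3210.9 in SP49 against 2569.3, 3064.7 and 3837.3. FCER2, the activation antigen CD23, read 628.5, 122.4 and 446.7 against 218.9 in SP49 and 11.4 to 34.8 in the other 4 lines. CCND2, the cyclin D2 gene, read 1257.8, 4041.6 and 3956.7 against 2636.2 in HBL-2, 150.6 in SP49 and 2.6 to 4.9 elsewhere. CR2, the receptor that EBV uses to enter B cells, gave no order, at 275.5, 96.6 and 8.2 against 0.7 to 868.5. CCR7, GPR183, CD40, RUNX3, BCL6, MME, TCL1A, CCND1 and SOX11 also overlapped between the groups. At another probe set RUNX3 separated the groups, with a difference of 1.31.

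**Figure D3:**
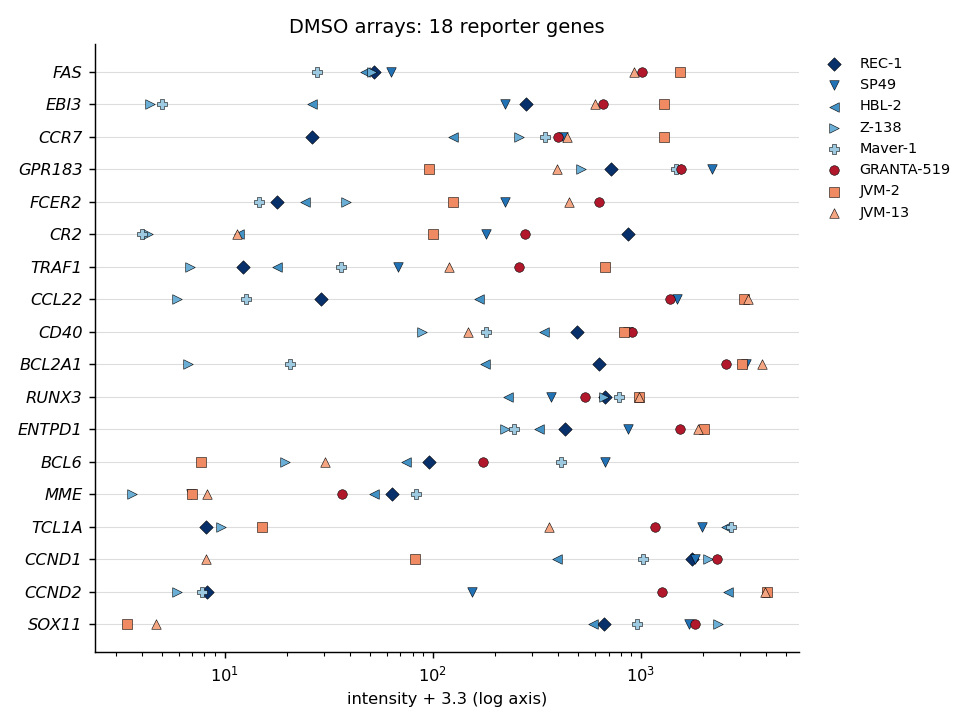
Intensity plus 3.3 (log axis) of the 18 reporter genes in each DMSO array; red and orange points are EBV-positive lines and blue points EBV-negative lines. FAS, EBI3, TRAF1 and ENTPD1 show no overlap of the groups, while SP49 lies among the EBV-positive lines for CCL22 and BCL2A1, and GRANTA-519 lies with the EBV-negative lines for CCND1 and SOX11.

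The gene lists put these genes beside the rest of their pathways. The lists were chosen with earlier results of these data known, so their counts carry no test. Of 28 tested genes induced by LMP1 or NF-kB, FAS alone was called (0.553% of all genes were called higher) and 14 were higher at an unadjusted p under 0.05 (7.22% of all genes). In this list 9 lay above all 5 EBV-negative lines (4.85% of all genes), and 27 had a positive difference, with a median of 1.18 against -0.10 over all genes. The 9 were TRAF1, NFKB1, TNFAIP3, FAS, EBI3, IRF4, BATF, TNIP1 and PLEK. IRF4, a transcription factor of activated B cells and plasma cells, read 1269.8, 1525.2 and 1677.5 against 444.5 to 1180.4 (1.14, SE 0.34, limma adjusted p 0.183). TNIP1, a partner of the NF-kB inhibitor A20, read 2013.2, 2354.3 and 2889.8 against 450.9 to 1317.8 (1.40, SE 0.33, limma adjusted p 0.106).

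Of 24 EBNA2 and Notch pathway genes, SLAMF1 rose (0.553% of all genes did), and NOTCH2 and DTX1 fell (0.284%). In this list 5 lay above (4.85% of all genes) and 2 below (4.44%), with a median of 1.79. The same shares over all genes apply to the other lists of this paragraph. LTA, the lymphotoxin gene, read 188.1, 841.6 and 1019.7 against 4.0 to 105.8 (4.66, SE 0.98, limma adjusted p 0.0689). CD58, the ligand of CD2, read 584.4, 1510.4 and 781.8 against 132.8 to 290.8 (2.16, SE 0.43, limma adjusted p 0.0574). Of 25 activation and adhesion genes, SLAMF1, CD274 and ENTPD1 rose, 9 lay above and 1 below (ITGB1), and the median was 2.17. TNFRSF8, which encodes CD30, separated the groups narrowly, with 17.9 in GRANTA-519 beside 16.9 in REC-1, although the JVM lines had 954.1 and 377.8 (4.22, SE 1.12, limma adjusted p 0.147). CD80, a costimulatory ligand, read 227.1, 983.4 and 94.9 against 6.0 to 86.1 (3.48, SE 0.95, limma adjusted p 0.160). Of 18 chemokines and cytokines, CCL5 rose and 5 lay above, with a median of 1.22. Relative to the EBV-negative mean, this list's line medians were 1.82 in GRANTA-519, 1.18 in JVM-2 and 1.9 in JVM-13. SP49 had 1.34, and the other EBV-negative lines -1.15 to 0.04. In the EBNA2 and Notch list SP49 had 1.17, against 1.37 to 1.75 in the EBV-positive lines. In the activation and adhesion list it had 1.0, against 1.67 to 2.37. IL12B, the p40 subunit that pairs with other interleukin chains, read 17.1, 926.8 and 143.5 against 0.2 to 2.0 (4.99, SE 1.03, limma adjusted p 0.0648).

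Of 20 cytoskeleton and motility genes of lymphoblasts, 7 lay above (4.85% of all genes) and 10 were higher at an unadjusted p under 0.05 (7.22% of all genes). Limma called 0, and the median was 1.53. FSCN1, the actin-bundling protein fascin that EBV is known to induce, read 462.7, 960.3 and 1009.8 against 275.4 in SP49 and 9.1 to 37.4 in the other 4 lines (4.65, SE 0.98, limma adjusted p 0.0705). LMNA, the A-type lamin gene, read 175.0, 648.8 and 724.3 against 13.3 to 79.6 (3.40, SE 0.69, limma adjusted p 0.0603). Of 16 plasma cell genes, SLAMF7 and ELL2 rose (0.553% of all genes did), with a median of 0.26. ELL2, an elongation factor of antibody-secreting cells, read 1458.8, 2727.3 and 4068.5 against 219.3 to 657.7 (2.35, SE 0.44, limma adjusted p 0.0436), and kept its call only without HBL-2 or GRANTA-519. In 27 JAK-STAT genes 4 lay above (4.85% of all genes), and limma called 0. At an unadjusted p under 0.05, 5 were higher (7.22% of all genes) and 1 lower (6.75%). The median was 0.56, and 0.34 without JVM-13. STAT3 read 416.8, 640.6 and 951.2 against 132.9 to 376.0 (1.56, SE 0.47, limma adjusted p 0.192), and STAT5A 119.2, 643.8 and 295.3 against 12.6 to 90.0.

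Of 25 B-cell identity genes BACH2 fell (0.284% of all genes did), 3 lay below (4.44% of all genes) and 1, TCF3, above (4.85%). A negative difference was found in 19, with a median of -0.94, and -0.44 without JVM-13. GRANTA-519 went the other way: relative to the EBV-negative mean, the list's median was 0.23 in GRANTA-519, -0.82 in JVM-2 and -1.74 in JVM-13. TCF3 lay above at 1 probe set (0.37), and its 11 other probe sets that reached 50 had the opposite sign. VPREB3 read 346.4 in GRANTA-519 but 13.7 and 17.0 in the JVM lines, against 437.6 to 1195.1 (-3.98, SE 0.91, limma adjusted p 0.0911). Of 15 tested members of the germinal centre list FOXP1 and BACH2 fell (0.284% of all genes did), and BACH2 is also in the identity list. In the germinal centre list 7 had a positive and 8 a negative difference, with a median of -0.41. The line medians were 0.65 in GRANTA-519, -0.43 in JVM-2 and -0.51 in JVM-13. Of 23 genes of the B-cell receptor core, limma called 0, and 5 were lower at an unadjusted p under 0.05 (6.75% of all genes). BANK1, CD79B and SYK lay below (4.44% of all genes). CD79B, a signalling chain of the receptor, read 614.3, 352.8 and 163.9 against 812.0 to 1852.7 (-1.94, SE 0.44, limma adjusted p 0.0911), and SYK, the kinase it recruits, 812.0, 276.1 and 93.7 against 844.1 to 1653.5 (-2.06, SE 0.57, limma adjusted p 0.166). Both were lowest in JVM-13. SYK had the same sign at its 3 other probe sets that reached 50, but only 1 of them separated the groups. The median of the receptor list was -0.03, -0.21 without JVM-13, and 0.17 with arrays centred. Centring moves the median of all genes from -0.10 to 0.10.

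Of 17 class I antigen presentation genes 4 lay above, HLA-E, HLA-F, B2M and PSMB8 (4.85% of all genes lay above). At the 2 other probe sets of HLA-E and of HLA-F the sign was the same, but the groups overlapped. The median was 0.30, and 0.74 without JVM-13. Limma called 0 (0.553% of all genes were called higher and 0.284% lower), and 1 was higher at an unadjusted p under 0.05 (7.22% of all genes). REC-1 was far below every other line in HLA-E, at 6.9, and HLA-F, at 40.5. Without counting REC-1 the EBV-negative lines had 809.8 to 1119.9 for HLA-E, against 1344.2 to 1791.9 in the EBV-positive lines. Limma called 0 of 16 class II genes and 0 of 19 MYC target and ribosome biogenesis genes, and none of either list passed an unadjusted p of 0.05. Their medians were -0.12 and -0.02, and 0.08 and 0.18 with arrays centred. The class II lines went opposite ways, with line medians of 1.12 in GRANTA-519, 0.12 in JVM-2 and -1.08 in JVM-13, and without JVM-13 the medians of the class II and MYC lists were 0.35 and -0.06. Of 37 cell cycle genes limma called 0, and 3 were lower at an unadjusted p under 0.05 (6.75% of all genes). In this list 33 had a negative difference, with a median of -0.36. In JVM-13 the median of that list was -0.97 and in GRANTA-519 and JVM-2 -0.11 and -0.09, relative to the mean of the EBV-negative lines, and without JVM-13 the difference had a median of -0.10. Of 25 glycolysis and hypoxia genes 3 lay above (4.85% of all genes), among them ALDOC at 485.5, 597.3 and 1042.5 against 39.1 to 179.7 (2.87, SE 0.58, limma adjusted p 0.0601).

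Of 21 TNF receptor family and death receptor genes FAS rose (0.553% of all genes did), with a median of 0.63. Of 16 BCL2 family genes HRK fell (0.284% of all genes did), with a median of 0.11, and 0.28 without JVM-13. Limma called 0 of 20 D cyclin, CDK inhibitor and mantle cell lymphoma genes, with a median of -0.23, and -0.01 without JVM-13. At an unadjusted p under 0.05, 3 were higher and 3 lower (7.22% and 6.75% of all genes). Limma also called 0 of 18 homing and egress receptors (0.553% of all genes were called higher and 0.284% lower). At an unadjusted p under 0.05, 2 were higher and 3 lower (7.22% and 6.75% of all genes). In this list 2 lay above and 1 below (4.85% and 4.44% of all genes). The median was 0.04, and 0.62 without JVM-13. KLF2, a transcription factor that keeps up egress receptors, read 31.9, 64.6 and 27.0 against 118.7 to 278.4 (-2.22, SE 0.47, limma adjusted p 0.0693). RGS1, which dampens chemokine receptor signals, read 647.7, 1806.4 and 644.7 against 8.4 to 349.0 (3.96, SE 1.16, limma adjusted p 0.177).

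Markers of other cell types were read in the same way. Of 12 T-cell markers the summed intensity was 752.6 in GRANTA-519, of which CD28 gave 594.0, 54.0 in JVM-2 and 128.0 in JVM-13, against 79.0 to 657.8. Of 8 fibroblast markers the sums were 795.5, 240.7 and 90.7 against 29.3 to 433.3, and COL1A1 alone gave 613.9 in GRANTA-519 and 409.1 in Z-138, while DCN, LUM and COL3A1 were at 8 or less in every line. Among the fibroblast list, with 7 of 14 genes tested, ACTA2, THY1 and SPARC lay above all 5 lines without a call (4.85% of all genes lay above). ACTA2 and SPARC are not among the 8 markers summed. The myeloid marker ITGAM, at 249.5, 38.9 and 46.3 against 1.7 to 33.3, and the epithelial marker KRT7, at 22.3, 50.3 and 77.1 against 1.3 to 8.3, also lay above without a call. They were the 1 such gene of 3 tested in the myeloid list and of 6 in the epithelial list. A gene low in the EBV-negative lines can pass the filter for testing through the EBV-positive lines alone. The 8 measured myeloid markers summed to 279.5, 71.9 and 83.3 against 18.8 to 171.5, with CD14 under 2 in every line. The 6 epithelial markers summed to 79.3 to 95.1 against 25.1 to 420.2. The part of other cells in the calls was not tested.

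**Figure D4:**
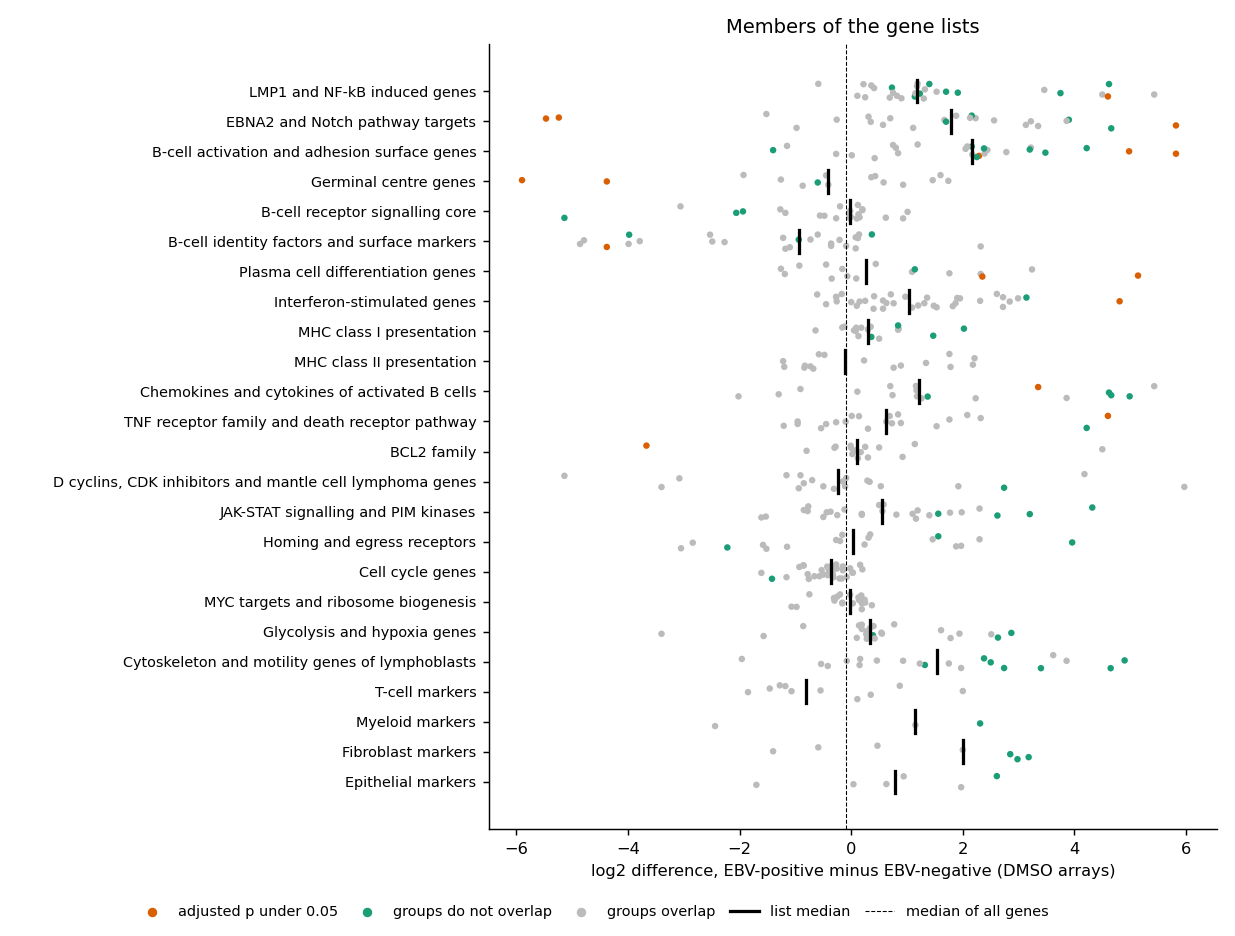
Each point is a tested list member placed by its log2 difference between EBV-positive and EBV-negative lines on the DMSO arrays; orange points were called by limma, green points did not overlap between the groups, grey points did, and the black bar is the list's median. The median of all genes is the dashed line at -0.10, and the activation and adhesion list has its median at 2.17.

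A second array of each line, after AFN700, gives the same comparison of lines with other arrays. It is not independent of the first, since the lines are the same, and the drug was present. On these arrays 589 genes (4.79%) lay above and 769 (6.25%) below. Of the 68 genes called higher under DMSO, 64 again lay above, and of the 35 called lower, 35 again lay below; 38 and 24 were also called there by limma. The 4 exceptions were VCAM1, IRAK3, LINC02703 and NR2F1-AS1. VCAM1 read 4.0 in GRANTA-519 with AFN700, as in Maver-1 with 4.0, while it stayed at 174.4 and 869.5 in JVM-2 and JVM-13. FAS read 864.9, 1130.2 and 1228.3 against at most 61.8 (4.81, limma adjusted p 0.00135), and NOTCH2 22.1, 117.3 and 50.5 against 1538.6 to 2779.4 (-5.31, limma adjusted p 0.00135). For JVM-13 the title of this array says AFN700 and its description AFN701, and it was used as the line's second array.

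**Figure D5:**
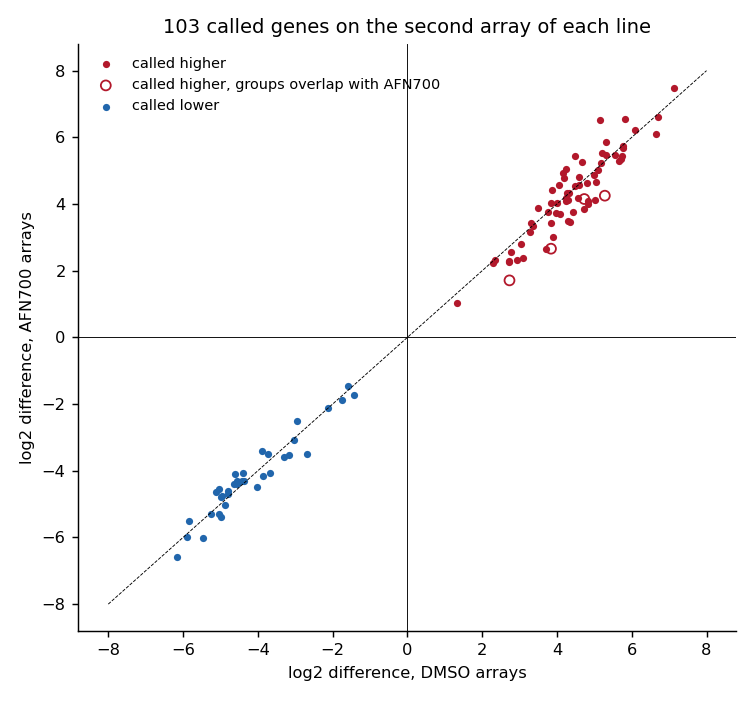
Each point is one of the 103 genes called on the DMSO arrays, with its log2 difference between EBV-positive and EBV-negative lines on the DMSO arrays (horizontal) and on the AFN700 arrays of the same lines (vertical); the dashed line is equality. Open circles are the 4 genes whose groups overlap with AFN700, among them VCAM1 at 5.28 and 4.25.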

How the data were processed

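RNA from 8 lines was measured on 16 Affymetrix arrays, and the authors deposited linear intensities per probe set, made with MAS5 per the submitters' processing notes, whose version is not given in the sources used here. After trimming 2% at either end, every array has a mean of 150. Genes were named through the platform's annotation table, with symbols updated to RefSeq of GRCh38.p14. Of 54675 probe sets, 41091 had 1 gene, 1801 had several and 11777 were not listed, and the 62 controls were not used. The probe set of highest mean stood for each of 19775 genes.

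Intensities were taken to log2(intensity + 3.3), 3.3 being the 25th percentile of all values. Testing required a level above the 60th percentile of an array in 2 or more of the 16 arrays, met by 12305 genes. The 8 DMSO arrays were fitted with limma 3.58.1 in R 4.3.3 (lmFit, eBayes with trend, 6 residual degrees of freedom, Benjamini-Hochberg over all genes tested, threshold 0.05). Precision is limited by the number of arrays. Only the limma fit was tried on simulated arrays, with independent genes of equal spread in both groups. This does not test the choice of probe sets, the filter or the naming rule.

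Named genes were, per direction, 15 called genes with no overlap between the groups, the lowest line of the higher group at 50 or more, and the widest gap; 18 reporters; and up to 6 members of smallest p per list, of those whose groups do not overlap (or 2 where none). Other called genes named were chosen after their values were seen. The members and the 24 lists were chosen with earlier results of these data known. The list results cover 20 lists of B-cell pathways and 4 of other cell types. XIST and Y-linked genes were left out. Alternatives were other pseudocounts, scalings, filters, probe set rules, covariates and lines; the use of JVM-13's AFN700 array and quantile normalization without JVM-13 were chosen after seeing the data. Nothing in the labels says whether arrays came from separate cultures, so p-values measure only the spread between lines.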

Additional observations from a re-analysis of the deposited data

Results flagged for a closer look

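Each of the 104 named genes was examined for a line far from the other 4 in the EBV-negative group, where the gap to the nearest line exceeds Dixon's 95% limit. Chance gives about 1 in 20 for genes not chosen by their values. Many of the named genes were chosen by these same values, so that rate may not hold here. The 10 that did so were ELL2 in HBL-2 (219.3), GBP2 (17.7), PSMB8 (313.0), HLA-F (40.5), HLA-E (6.9), IL6 (1.0) and ENO2 (0.6) in REC-1, CTSH in Z-138 (49.0), and IL2RB (49.0) and TPM4 (1433.2) in SP49. REC-1 was the line set apart in 6 of the 10. The group of 3 EBV-positive lines is too small for this check.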

How the results depend on the processing

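No paired analysis was possible because the EBV-positive and EBV-negative lines are different lines, numbered only by order. Of 68 higher and 35 lower calls, counts moved by over 1.5 times to 24 higher under the 75th-percentile filter, 54 lower on the AFN700 arrays, 10 lower with GRANTA-519 alone, 123 and 55 with the AFN700 array of JVM-13 in place of its DMSO array, 8 and 3 with the actin ratio as a covariate, 105 higher with array weights, 15 lower among insensitive lines, 22 lower with the mean of all probe sets, 30 and 9 without JVM-13 under quantile normalization, and 140 and 74 at a threshold of 0.10. Leaving out a line gave 24 to 191 higher and 9 to 182 lower. Genes above and below, 597 and 546, became 2224 and 1823 with GRANTA-519 alone, 1032 and 1082 among insensitive lines and 900 and 1027 without JVM-13 under quantile normalization, where fewer lines must separate, and 700 to 1192 and 657 to 1559 on leaving out a line. List members called, 13, became 8 (75th percentile), 5 (GRANTA-519 alone), 20 (JVM-13 exchanged), 4 (actin), 7 (without JVM-13 under quantile normalization) and 27 (0.10), and 5 to 35 on leaving out a line. List members not overlapping, 66, became 168 with GRANTA-519 alone and 113 among insensitive lines, and 74 to 135 on leaving out a line. Reporters called, 2, became 4 among insensitive lines and 1 under the 75th percentile, AFN700 arrays, GRANTA-519 alone, actin, array weights, mean of probe sets, mean of both arrays, no filter, no trend, a pseudocount of 1, and without JVM-13 under quantile normalization, and 1 to 4 on leaving out a line. The other counts stayed within 1.5 times. The direction turned in 9 of 104 named genes, none of them called: with GRANTA-519 alone for GPR183 (0.47), BCL6 (0.42), MME (0.65), TCL1A (2.21), CCND1 (0.93), SOX11 (0.74) and LCK (0.07); TCL1A with JVM-13 exchanged (0.05) and without SP49 (0.29), HBL-2 (0.38), Maver-1 (0.40) or JVM-2 (1.36), in a range from -1.78 to 1.36 on leaving out a line; TCF3 with the mean of probe sets (-0.98); and NPM1 without JVM-13 under quantile normalization (-0.03). The cause was not tested. With 1 array per line, levels of a few units are not told from background.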

Other observations

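Genes known as targets of the tumour suppressor p53 were looked at after FAS, ZMAT3 and DRAM1 were seen among the higher calls, so the choice followed the values and carries no test. Of 24 such genes 22 were tested, and limma called 4 higher (0.553% of all genes were). They were FAS, ZMAT3, an RNA-binding protein, DRAM1, a regulator of autophagy, and the transcript read by the probe set annotated to MIR34A. ZMAT3 read 1937.9, 1560.0 and 3579.8 in GRANTA-519, JVM-2 and JVM-13 against 161.2 to 506.7 (2.71, SE 0.42, limma adjusted p 0.0226), and DRAM1 574.7, 603.5 and 794.2 against 13.9 to 84.6 (4.27, SE 0.57, limma adjusted p 0.0119). The MIR34A probe set, which does not measure the mature microRNA, read 343.7, 226.0 and 736.3 against 88.2 in SP49 and 3.8 to 7.8 in the other EBV-negative lines (4.82, SE 0.87, limma adjusted p 0.0406). In all, 9 of the 22 lay above all 5 EBV-negative lines (4.85% of all genes tested did), in a list looked at because 3 of its members had been seen among the calls, and the median difference was 0.91, against -0.10 over all genes. CDKN1A, the cell cycle inhibitor p21, separated the groups without a call, with 1514.8, 1850.2 and 2042.2 against 8.7 in REC-1 and 259.8 to 1229.7 elsewhere (limma adjusted p 0.363), and MDM2 overlapped. Of the 8 fits that left out a line, FAS kept its call in all 8, DRAM1 in 6 (not without either JVM line), ZMAT3 in 5 (not without either JVM line or Maver-1) and MIR34A in 2 (without SP49 or GRANTA-519).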
